A study of Mus musculus with 18 samples.

Results

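DNA methylation was examined at 4 genes of hormone receptors and luminal transcription factors in the mouse mammary gland: Esr1, Pgr, Gata3 and Foxa1. The members are the CpGs inside fixed windows of mouse genome build mm9 that had at least 5 reads in each of the 18 libraries. The windows were chromosome 10 from 4320 to 4735 kb for Esr1, chromosome 9 from 8890 to 8980 kb for Pgr, chromosome 2 from 9770 to 9830 kb for Gata3 and chromosome 12 from 58630 to 58660 kb for Foxa1. In all, 381 CpGs were members, of 711980 in the series that met the same read minimum. Esr1 had 133 of the 252 CpGs listed in its window, Pgr 31 of 62, Gata3 120 of 256 and Foxa1 97 of 184.

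The libraries were reduced representation bisulfite libraries, in which DNA is cut with MspI at CCGG and unmethylated cytosines are converted, so that mainly CpG-rich DNA is read. They came from mammary glands of C57BL/6 female mice, from cells that the labels call stem, luminal progenitor or mature luminal. Each cell type had 1 library per stage: week 3 and week 9 virgin mice, pregnant mice on day 10, 16 and 19, and breeders after retirement, whose age is not given. The labels do not say whether animals were pooled or whether the cell types of a stage shared animals, so p-values measure only the spread between these libraries. Ages are given for virgin mice alone, so pregnancy and age cannot be told apart. Reads summed over all CpGs of a library ran from 17513287 in retired mature to 117922522 in week 9 mature, and the median coverage per CpG from 10 to 70 reads, lowest in retired progenitor and retired mature. In 7 libraries (day 16 progenitor, all day 19 and all retired) the deposited files had 6 columns, and in the other 11 they had 4.

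Oestrogen receptor alpha (Esr1) and progesterone receptor (Pgr) are nuclear receptors that bind DNA after binding their hormone, and Pgr is itself a classical oestrogen target. FOXA1 is a pioneer factor that opens chromatin for the oestrogen receptor, and GATA3 is a zinc finger factor needed to form and keep the luminal lineage. In the gland, a subset of mature luminal cells carries both receptors and signals to its neighbours, while basal and stem-enriched cells largely lack them. Methylation of a CpG-rich promoter is usually associated with silencing, whereas methylation in gene bodies and at distal elements varies between cell types.

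Of the 4 genes, Gata3 was the one whose start could be placed on the deposited positions, by matching the spacing of CpGs in its RefSeq promoter sequence (GRCm38.p6) to the listed CpGs: 10 of 10 listed CpGs matched, and the next best place on the chromosome matched 4. The 250 bases before the Gata3 start, on the minus strand at chr2:9800228-9800477 of mm9, are shown because methylation there was near 0 while the DNA downstream varied. A second promoter in the Gata3 window, that of the long non-coding RNA gene 4930412O13Rik on the plus strand at chr2:9802623-9802922, was matched at 16 of 16 listed CpGs and is shown because its 2 measured CpGs differed widely. Capitals mark the CpGs measured in all libraries.
Gata3 promoter: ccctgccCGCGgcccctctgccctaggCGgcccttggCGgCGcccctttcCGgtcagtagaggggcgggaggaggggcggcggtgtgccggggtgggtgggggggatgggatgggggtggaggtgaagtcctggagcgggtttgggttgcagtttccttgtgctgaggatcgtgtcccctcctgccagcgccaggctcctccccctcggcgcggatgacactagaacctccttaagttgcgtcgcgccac
4930412O13Rik promoter: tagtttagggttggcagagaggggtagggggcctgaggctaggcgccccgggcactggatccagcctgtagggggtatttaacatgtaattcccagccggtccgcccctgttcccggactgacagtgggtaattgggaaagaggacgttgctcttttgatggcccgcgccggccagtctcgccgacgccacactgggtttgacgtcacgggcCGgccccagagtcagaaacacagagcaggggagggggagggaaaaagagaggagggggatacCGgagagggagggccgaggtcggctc
The Gata3 stretch held 19 CpGs, of which 6 were measured, and 2 CCGG sites. The MspI site CCGG reads the same on both strands, and it was present in 47.1% of the 32851 RefSeq promoters over the same 250 bases. Starts of Esr1, Pgr and Foxa1 could not be placed in this way, and exons and introns in mm9 were not analysed here.

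All 6 measured Gata3 promoter CpGs, which lie 200 to 243 bases before the start, were close to unmethylated. In 4 of them no methylated read was found in any library, at 11 to 152 reads per library, and the highest value of any of them in any library was 2.56%. At 4930412O13Rik the CpG 38 bases before the start had a mean of 0.0624% over the 18 libraries. The CpG 24 bases after it, at position 9802897, had a mean of 31.4%, with 8.11% in the day 19 progenitor library and 63.2% in the day 16 stem library. That CpG was covered by 6 to 85 reads per library, so single values are imprecise.

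The windows differed strongly in level, as the plot of single CpGs shows. Pgr was the lowest, with a mean over CpGs and libraries of 0.914% and the means of all 31 CpGs below 20%. Foxa1 averaged 3.65%, with 96 of 97 CpGs below 20%. Gata3 averaged 9.12%, with 105 CpGs below 20%, 12 between 20 and 80% and 3 above 80%. Esr1 averaged 47.9% and was split into 57 CpGs below 20%, 27 between and 49 above 80%. Over all 4 windows, 75.9% of CpGs were below 20%, against 39.7% of CpGs in the series. A standard deviation (SD) over libraries of at least 10 percentage points was found at 46 member CpGs, 12.1%, against 20.2% in the series. The windows were set around chosen genes, and the part of promoter CpGs in these shares was not tested, so the shares are descriptions.

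**Figure D1:**
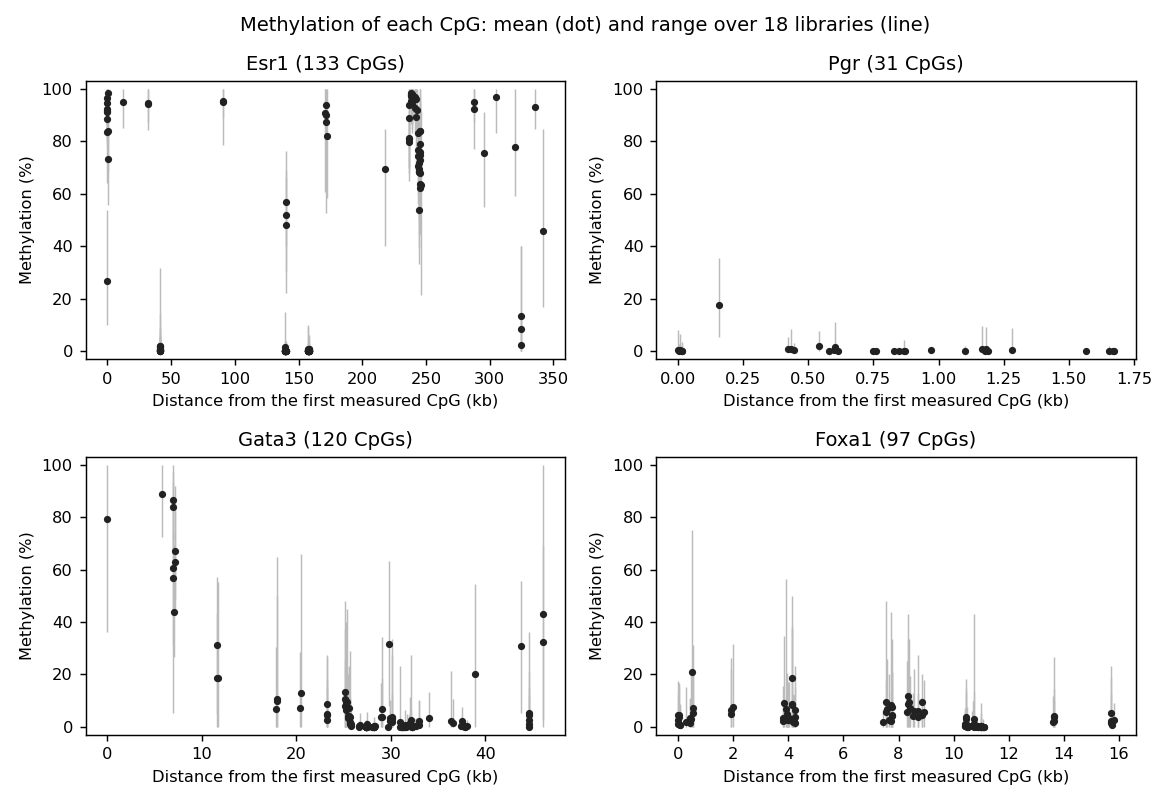
Methylation (%) of each member CpG against its distance from the first measured CpG of the window (kb); dots are means over 18 libraries and grey lines the range from lowest to highest library. The 31 Pgr CpGs and all but 1 of the 97 Foxa1 CpGs have means below 20%, Gata3 is low across its middle and high at one end, and Esr1 alternates between unmethylated and methylated stretches.

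For each gene the mean over its CpGs gave 1 value per library, and cell types were compared within stages. Two-sided exact permutation tests that exchanged cell types within the 6 stages were used, which cannot give a p below 0.03125, and 12 such comparisons were adjusted together by the Benjamini-Hochberg method. Pregnant and virgin libraries of a cell type, 3 against 2, were compared by two-sided exact permutation, which cannot give a p below 0.1, again with 12 comparisons adjusted together. No window mean passed an adjusted threshold of 0.05 in either family. Methylated and total reads were also summed in 1000 bp tiles with at least 3 CpGs and tested by quasi-binomial regression across the genome, as described under the processing. Calls required an adjusted p below 0.05 together with a difference of 10 points or more. The windows held 40 of the 77064 tested tiles: 15 in Esr1, 2 in Pgr, 13 in Gata3 and 10 in Foxa1, with 345 of the 381 CpGs.

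None of the 40 tiles was called in any of the 8 comparisons by quasi-binomial regression, and none by limma on log2 ratios. The background share of called tiles was 0% for stem against progenitor, 0% for stem against mature, 0% for progenitor against mature, 0.308% for pregnant against virgin stem, 0% for pregnant against virgin progenitor, 0% for pregnant against virgin mature, and 0% for both contrasts of the pregnancy effect, stem against progenitor and stem against mature. At an unadjusted p under 0.05 there were 9 member tiles for stem against mature, 22.5% of 40, against a background of 11%. For stem against progenitor there were 2 (background 9.28%), for progenitor against mature 5 (5.96%), and for pregnant against virgin 6 in stem (14.3%), 3 in progenitor (3.76%) and 0 in mature libraries (5.08%). The contrast of the pregnancy effect gave 2 tiles for stem against progenitor (10.5%) and 3 for stem against mature (11.4%). Median differences over the member tiles lay between -0.59 and 0.28 points, and over all tiles between -0.25 and 0 points.

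Esr1, the oestrogen receptor gene, held 4 nearly unmethylated tiles amid methylated DNA. They started at 4424001, 4522001, 4540001 and 4541001 on chromosome 10, with 12, 18, 12 and 12 CpGs and means of 0.684, 0.217, 0.159 and 0.270%. The highest value of any library in these 4 tiles was 3.26%, in day 16 progenitor at the tile from 4424001. The 3 CpGs of the tile from 4523001, next to the unmethylated tile from 4522001, averaged 52.7% ± 6.41 (SD, n = 18), with 34.8% in retired mature and 65.0% in week 9 stem. Among the methylated tiles, the 10 CpGs from 4621001 averaged 97.3% ± 0.921 (SD, n = 18) and stayed between 95.6 and 98.9%. The 6 CpGs from 4628001 averaged 72.4% ± 6.36 (SD, n = 18) with values of 64.1 to 84.6%. Towards the far end the tile from 4707001 averaged 7.22% over 3 CpGs.

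The Esr1 window mean stayed between 45.8% (day 16 stem) and 49.2% (week 9 stem). In stem cells it was 48.6 and 49.2% at week 3 and week 9 and 47.3, 45.8 and 46.9% at day 10, day 16 and day 19, so every pregnant library lay below both virgin ones. Their difference was -2.19 points (exact permutation p = 0.1, adjusted p = 0.3). Median reads per CpG in the window were 49 and 60 in virgin stem and 41, 21 and 28 in pregnant stem libraries. The part of depth in this difference was not tested. In progenitor cells the virgin values were 47.3 and 47.2% and the pregnant ones 48.0, 48.8 and 48.1%, all above, a difference of 1.03 points (exact permutation p = 0.1, adjusted p = 0.3). In mature cells the groups overlapped and the difference was 0.677 points (exact permutation p = 0.3, adjusted p = 0.72). The progenitor difference was -1.03 points when CpGs with 5 reads were taken library by library. Cell types did not separate, with differences of -0.393 to 0.232 points and exact permutation p of 0.344 to 0.844. With CpGs taken library by library, progenitor minus mature was -1.615 points (exact permutation p = 0.03125, the smallest possible, adjusted p = 0.1875). That setting averages a different set of CpGs in each library, in a window with 57 CpGs below 20% and 49 above 80%. The part of the differing sets in this value was not tested.

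Of the Esr1 tiles, the one from 4554001 had the smallest p for pregnancy in stem cells, with 91.6 and 95.3% in virgin libraries and 79.7, 90.1 and 88.4% in pregnant ones. The difference was -7.41 points, with an adjusted p of 0.203 in the quasi-binomial test. The lowest value came from the day 10 library, and without it the difference was -4.24 points. Among single Esr1 CpGs the widest spread was at position 4725222, which had 80% in week 3 stem and 84.8% in week 9 stem, while the other 16 libraries had 17.0 to 62.5%. This CpG lies in no tested tile and was chosen after its values were seen, so it has no test.

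Pgr, the progesterone receptor gene, was represented by 2 neighbouring tiles. The tile from 8900001 (16 CpGs) averaged 1.78% with a highest value of 4.65% in day 16 mature, and the tile from 8901001 (15 CpGs) averaged 0.196% with a highest value of 1.15% in day 16 progenitor. Of the 31 CpGs, 21 were under 5% in every library. The CpG at position 8900395 stood apart with a mean of 17.6% and a range of 5.56 to 35.7%, and high and low values occurred in all 3 cell types. Window means ran from 0.302% (day 19 mature) to 1.91% (day 16 mature). No cell type or pregnancy comparison of the Pgr window exceeded 0.258 points, with exact permutation p of 0.375 to 1. Of the 31 CpGs, 18 had 10 or more reads in all libraries.

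Foxa1, the pioneer factor gene, was low across its window but less uniformly than Pgr. The tile from 58646001 on chromosome 12 held 30 CpGs and averaged 0.578%, while the other 9 tiles averaged 2.48 to 6.28%. In that tile the virgin stem libraries had 0% and 0.0598%, and the pregnant ones 0.884, 0.359 and 1.34% at day 10, day 16 and day 19. All 3 pregnant values were higher, by 0.83 points on average, with an adjusted p of 0.0564 in the quasi-binomial test. The difference is far under the 10 points required for a call. The tile had 382 to 2599 reads per library, so stem values this near 0 rest on few methylated reads. The part of incomplete bisulfite conversion was not tested. Progenitor libraries also had higher pregnant values in the tile, 0.693, 1.42 and 1.34% against 0.522 and 0.592%, with an adjusted p of 1 in the quasi-binomial test. Without a single library the adjusted p in stem cells ran from 0.0337 to 0.357.

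Over the whole Foxa1 window, virgin stem libraries had 2.41 and 2.29% and pregnant ones 3.78, 3.24 and 4.21%, a difference of 1.39 points with no overlap (exact permutation p = 0.1, adjusted p = 0.3). Within files of the 4-column layout alone, which hold both virgin and 2 pregnant stem libraries, it was 1.16 points. Median reads per CpG in the window were 53 and 66 in virgin stem and 48, 22 and 35 in pregnant stem libraries. The part of depth in this difference was not tested. Stem and mature libraries differed by 0.134 points (exact permutation p = 0.875). That average joined opposite values: stem was lower by 0.0966 to 2.29 points in the 4 stages whose stem and mature files had 4 columns, and higher in both stages with 6 columns, by 2.45 and 3.43 points. The 6-column stages were day 19 and retired, so stage and file layout cannot be told apart. Among Foxa1 CpGs the largest SD was at position 58636387, which had a mean of 20.8%, with 0% in retired mature and 75% in day 16 progenitor. Median reads per CpG in the window were 16 and 17 in these libraries, so single values are imprecise.

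**Figure D2:**
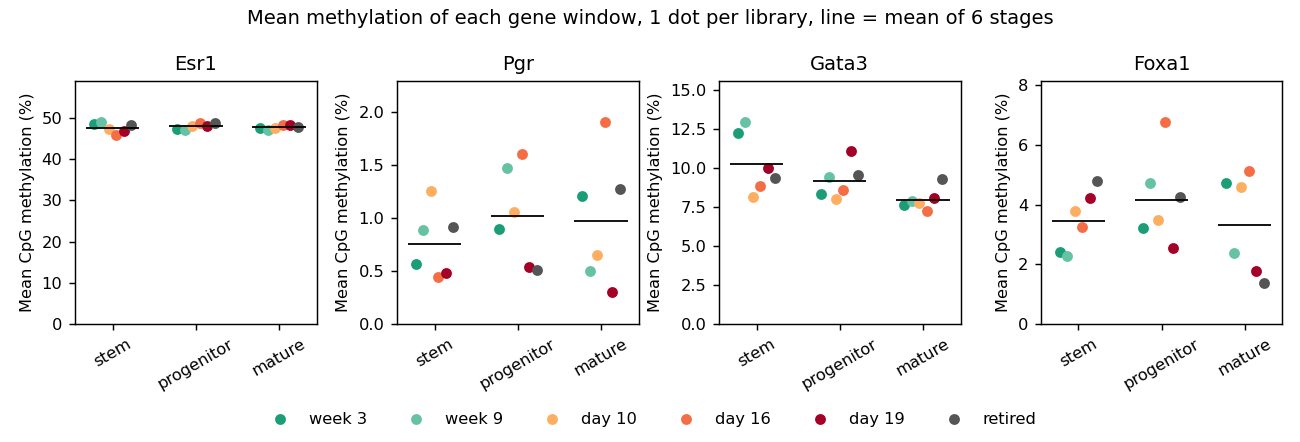
Mean CpG methylation (%) of each gene window, 1 dot per library coloured by stage, with the mean of 6 stages as a line for each cell type. Axes start at 0 and differ in scale between genes; Gata3 is highest in the week 3 and week 9 stem libraries, at 12.3 and 13.0%, and Esr1 hardly moves.

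Gata3, the luminal lineage factor gene, had the largest differences of window means between cell types among the 4 genes. Its window mean was higher in stem than in mature libraries in 6 of 6 stages, with 10.3% ± 1.94 (SD, n = 6) against 7.96% ± 0.694 (n = 6), a difference of 2.30 points (exact permutation p = 0.0312, the smallest possible; adjusted p = 0.1875). The difference by stage was 4.64 and 5.11 points at week 3 and week 9, 0.416 points at day 10, 1.60 at day 16, 1.92 at day 19 and 0.122 in the retired stage. Progenitor libraries, at 9.15% ± 1.12 (SD, n = 6), also exceeded mature ones in 6 of 6 stages, by 1.19 points (exact permutation p = 0.0312, adjusted p = 0.1875), and by 3.03 points at day 19. Stem and progenitor did not separate (1.11 points, exact permutation p = 0.344, adjusted p = 0.75). Within the 4-column files stem exceeded mature by 2.94 points over 4 stages, and within the 6-column files by 1.02 points over 2. Stem minus progenitor was 2.55 points over 3 stages of 4-column files, but -0.626 points over 2 stages of 6-column files.

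In stem cells the Gata3 window had 12.3 and 13.0% at week 3 and week 9 and 8.13, 8.83 and 9.97% at day 10, day 16 and day 19. All pregnant values lay below both virgin ones, a difference of -3.63 points (exact permutation p = 0.1, adjusted p = 0.3), and -4.13 points within the 4-column files. Median reads per CpG in the window were 57.5 and 73 in the virgin stem libraries and 50.5, 25.5 and 33 in the pregnant ones, so depth moved with the groups and its part in the result was not tested. In progenitor cells the difference was 0.366 points and in mature cells -0.0695 points (each exact permutation p = 0.9).

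The profile along the gene showed where the values differed. From 1119 bases before to 482 bases after the start, 22 CpGs averaged 0 to 0.260% in every library. From 1392 to 15528 bases downstream of the start, in the direction of transcription, 29 CpGs averaged 22.6% in week 9 stem, 19.8% in week 3 stem, 18.2% in day 19 progenitor, 12.6% in day 19 stem and 10.3% in week 9 progenitor. The other 13 libraries had 1.74 to 7.71%, with day 16 mature lowest. At least 10% methylation was reached by 24 of the 29 CpGs in week 3 stem and 18 in week 9 stem. Day 19 progenitor had 17 such CpGs and day 19 stem 15. The remaining stem libraries had 8 (retired), 6 (day 16) and 3 (day 10). Mature libraries had 9 (retired), 5 (day 19), 3 (week 9), 2 (day 10), 1 (week 3) and 1 (day 16). The remaining progenitor libraries had from 2 (retired) to 9 (week 9). Farther downstream, 19995 to 27147 bases from the start, 9 CpGs averaged 63.3 to 80.7% in all libraries. On the upstream side the 42 CpGs from 1215 to 6879 bases away averaged from 0.999% in week 3 progenitor to 3.975% in retired progenitor. In that stretch week 3 stem had 2.615% and week 9 stem 3.73%. The 18 CpGs from 9247 to 19026 bases upstream averaged from 3.74% in day 19 progenitor to 13.1% in retired progenitor. The virgin stem libraries had 5.28 and 5.95% and the day 19 stem and mature libraries 5.93 and 5.57%, while day 10 stem had 12.0%, day 16 progenitor 12.2%, retired stem 10.9% and retired mature 12.3%. These stretches were bounded after the values were seen and have no test.

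**Figure D3:**
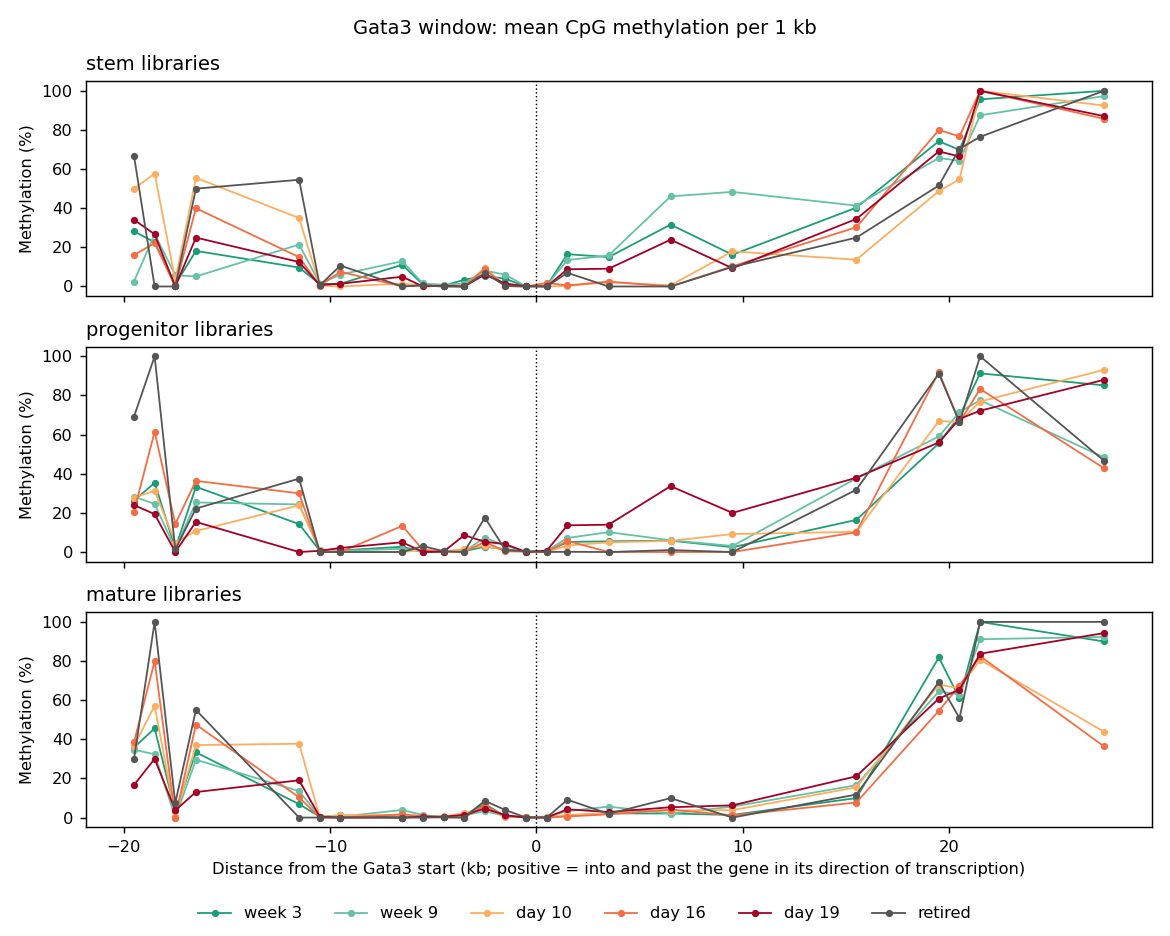
Mean CpG methylation (%) in 1 kb steps against distance from the Gata3 start (kb, positive in the direction of transcription), 1 line per stage and 1 panel per cell type. The start is near 0 in all libraries, and from 1 to 7 kb downstream the week 3 and week 9 stem lines and the day 19 progenitor line are the highest of their panels.

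Of the 29 CpGs in that downstream stretch, 24 lie in 3 tested tiles, and the other 5, from 6657 to 9331 bases downstream, lie in none. The tile from 9798001, 1227 to 2226 bases downstream, held 17 CpGs. In stem cells it had 16.4% at week 3 (183 of 1114 reads, 95% exact binomial interval 14.3 to 18.7%), 12.8% at week 9, 0.450% at day 10 (5 of 1110 reads, 0.146 to 1.05%), 0.701% at day 16, 9.64% at day 19 and 4.96% in retired breeders. The intervals cover counting error only, since reads can be copies of one molecule. The pregnant minus virgin difference was -11.0 points, with an adjusted p of 0.187 in the quasi-binomial test. The day 19 library was the pregnant one nearest to the virgin values, and without it the difference was -14.1 points with an adjusted p of 0.0596, the lowest of the 18 fits with 1 library left out; the highest was 0.508, without week 9 stem, at -12.8 points. The pregnancy effect differed from that in progenitor cells by -12.6 points (adjusted p = 0.525) and from that in mature cells by -11.3 points (adjusted p = 0.553), and neither passed the quasi-binomial test. Mature libraries had 0.636 to 4.35% except for the retired one, at 8.79%.

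The tile from 9796001, 3227 to 4226 bases downstream, held 4 CpGs and had 15.8 and 13.6% in virgin stem, 2.58, 2.33 and 10.5% in pregnant stem and 17.3% in day 19 progenitor libraries. The difference in stem cells was -9.59 points, with an adjusted p of 0.236 in the quasi-binomial test. At the tile from 9784001, 15227 to 16226 bases downstream, 3 CpGs had 14.3 to 43.0% in stem libraries (median 33.3%), 7.69 to 37.9% in progenitor libraries (median 21.6%) and 9.38 to 21.7% in mature libraries (median 14.3%). Stem exceeded mature there by 17.6 points, with an adjusted p of 0.154 in the quasi-binomial test, and the difference stayed between 14.4 and 21.3 points when any 1 library was left out. Only the day 10 stem library, at 14.3%, fell among the mature values. Across the 18 libraries the tiles from 9796001 and 9798001 had a Pearson r of 0.833 and a Spearman rho of 0.634. Those from 9784001 and 9796001 had 0.740 and 0.648, and those from 9784001 and 9798001 0.668 and 0.521. The points share libraries and depth, and these are descriptions.

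**Figure D4:**
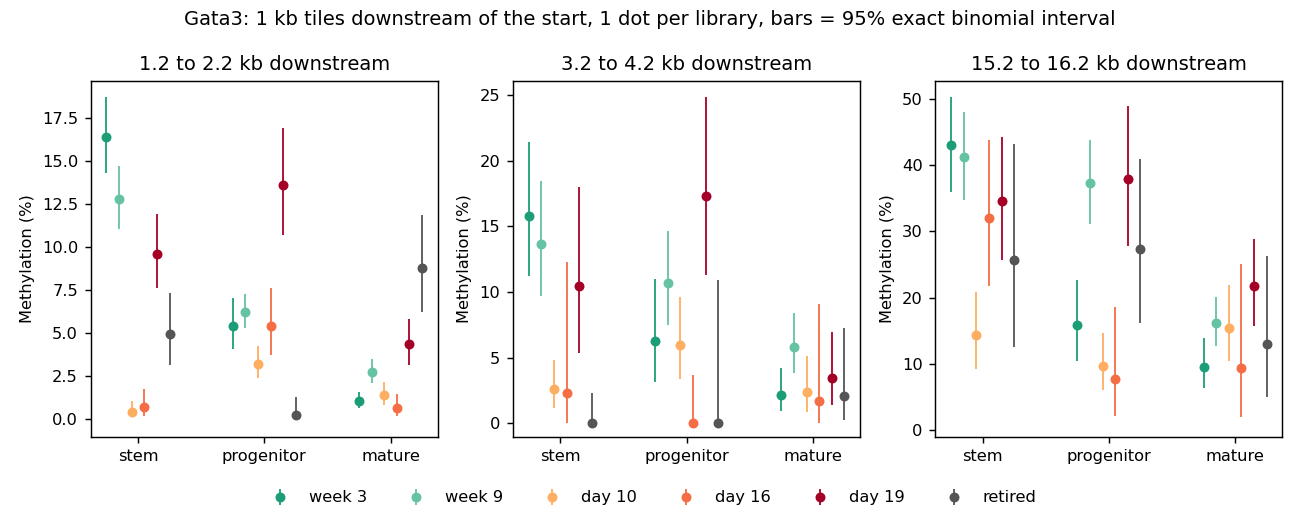
Methylation (%) of the 3 tested tiles downstream of the Gata3 start, 1 dot per library coloured by stage and grouped by cell type, with 95% exact binomial intervals from the reads; the panels have different scales. Virgin stem libraries are high in each panel, day 10 stem is low, and day 19 progenitor has 13.6 and 17.3% in the first and second panels.

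**Figure D5:**
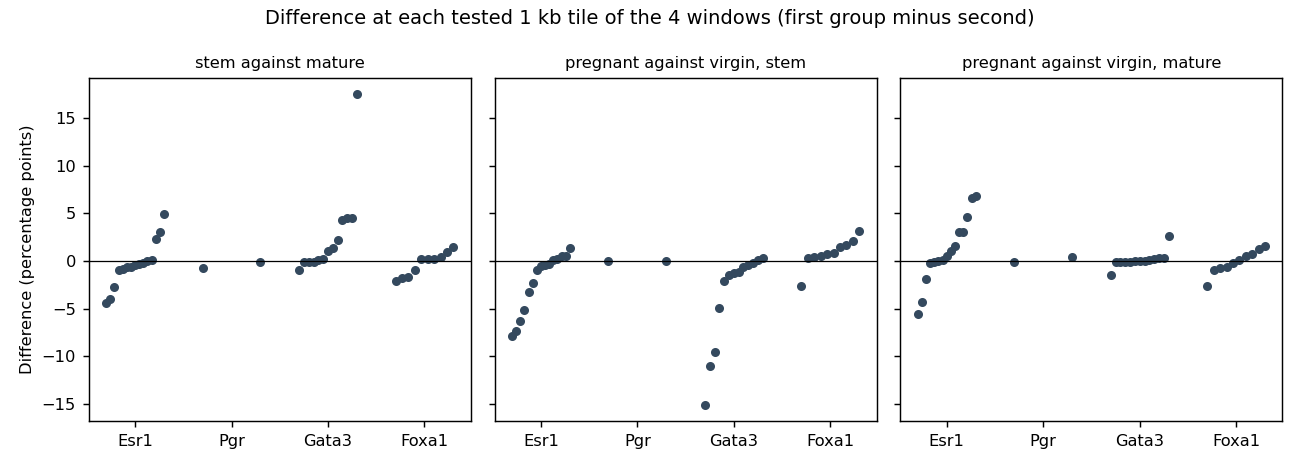
Differences in methylation (percentage points, first group minus second) at each of the 40 member tiles, ordered by size within a gene, for stem against mature and for pregnant against virgin in stem and in mature cells. The extremes are Gata3 tiles, 17.6 points for stem against mature and -15.2 points for pregnancy in stem cells; no tile was called.

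For each gene the most variable tile was compared with the 7061 or 7062 tiles elsewhere that had an SD of at least 10 points. Closest to the Gata3 tile from 9784001 were the tiles from 35685001 on chromosome 8 (Pearson r = 0.808 over 18 libraries), from 120158001 on chromosome 11 (0.798) and from 91199001 on chromosome 1 (0.792). For the Foxa1 tile from 58637001 the closest was that from 56095001 on chromosome 17 (0.849), for the Pgr tile from 8900001 that from 17222001 on chromosome 16 (0.861), and for the Esr1 tile from 4523001 that from 41399001 on chromosome 12 (0.798). Each is the highest of all values searched and describes these libraries alone.

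Other genes of the hormone response were read at their promoters. Of 45 listed receptors, coregulators, mediators and luminal factors, 34 had a RefSeq promoter sequence and 15 could be placed, with 17 promoters. All 17 averaged under 5% methylation, with a median of 0.192%, against a median of 0.157% and 95.2% under 5% among the 6320 promoters placed and measured in the series. None of their tiles was called in any comparison by quasi-binomial regression, where 0 to 0.308% of all tiles were called. At an unadjusted p under 0.05 there were 0 to 2 of the 17 in each comparison, against a background of 3.76 to 14.3%. Both Rara promoters lie in the same tile, which was counted for each of them, while the background counts every tile once. The widest ranges over the 18 libraries were from 0 to 5.52% at Xbp1, a factor of the secretory pathway, from 0 to 3.41% at the coactivator gene Ncoa7, from 0 to 2.99% at the Gata3 relative Gata2, from 0 to 1.85% at Rara, a retinoic acid receptor, and from 0 to 1.71% at Wnt4, a ligand induced by progesterone. Of 21 markers of stem or basal, luminal and other cells, 12 had a promoter sequence and 0 could be placed, so the labelled cell types were not checked against marker promoters.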

How the data were processed

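Each of the 18 deposited files lists CpGs on build mm9, per the submitters' processing notes, with the authors' methylated and total reads. The 6-column files add a score deposited by the authors, which equals 1000 times the methylated share within 0.5 and was used only for that check. Aligner, methylation caller and duplicate handling were not given in the sources used here. The members, gene lists and stretches were chosen with earlier results of these data known.

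A CpG was used if all 18 libraries covered it with 5 or more reads. Window means are unweighted over CpGs. Tiles of 1000 bp were fitted by quasi-binomial logistic regression on all 18 libraries, with a dispersion of at least 1 that was moderated by limma's squeezeVar method; F test p-values were adjusted by Benjamini-Hochberg over the 77064 tiles. Cell types were compared with stage, taken from the titles, as a block; pregnancy was compared in a model of 9 groups of cell type by state. Fitted logits were held within 14 of 0. A first version without this bound called 130 tiles for pregnancy in stem cells; the bounded fit, which called 237, was taken because it matched an earlier account of the series. On simulated counts with known changes the test found the right direction. At tiles with no change its unadjusted p-values were under 0.05 more often than nominal. That share was pooled over all unchanged tiles and not split by methylation level or depth, so it can be larger in some tiles. Unadjusted p-values are therefore read only beside the background share.

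A promoter was placed where at least 7 listed CpGs matched its RefSeq sequence, none was unmatched and the next place had at least 3 fewer; these limits were set after looking at examples. In all, 7700 of 32851 promoters were placed. Named tiles were, per gene, the tile with most CpGs, the 2 with the largest SD and those with the smallest p in each comparison; named promoters were those of the 5 listed genes with the widest range. Single CpGs were named after their values were seen. Python 3.11.15 with numpy 2.4.6, scipy 1.17.1 and pandas 2.3.3, and R 4.3.3 with limma 3.58.1, were used. The alternatives were a minimum of 10 reads, 500 bp tiles, a 20-point difference, CpGs with 5 reads taken library by library and pooled reads. Others were coverage capped at the 99th percentile by dropping deeper CpGs, limma, no stage term and each library or stage left out. The fit without the bound, the first version, became an alternative when the bounded fit was taken with results known. The split by file layout was added after seeing the data.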

Additional observations from a re-analysis of the deposited data

Results flagged for a closer look

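Of 75 groups of 6 libraries examined at the named tiles and windows, 7 held a library whose gap to the nearest other was large against the group's range. The criterion is set to pick about 1 group in 20 by chance among independent, normally distributed values. The rate for groups like these, many near 0% and with shared libraries, was not measured. Tiles were also named for a large SD or small p in these same libraries, so the 7 cannot be set against that rate. Day 16 progenitor, a library with a median of 11 reads per CpG, was the highest progenitor library in 3 of the 7, with 3.26% at the Esr1 tile from 4424001, 26.8% at the Foxa1 tile from 58637001 and 13.1% at the Gata3 tile from 9817001. Retired progenitor had 0.597% at the Esr1 tile from 4522001, the highest of the progenitor libraries. Week 9 stem had 65.03% at the Esr1 tile from 4523001, the highest of the stem libraries. At the tile from 9800001, which holds the Gata3 start, day 10 stem had 0.762% and day 16 mature 1.08%, each the highest of its cell type.

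For the Esr1 window, every pregnant stem library lay below both virgin stem libraries and every pregnant progenitor library above both virgin progenitor libraries. The pregnancy effects of stem minus progenitor cells differed by -3.219 points, and this difference was not tested over the window; at the 15 Esr1 tiles the direct test of that difference called 0 (0% of all tiles), with 0 at an unadjusted p under 0.05 (10.5% of all tiles).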

How the results depend on the processing

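No member tile was called under any alternative. Over all tiles, pregnancy in stem cells called 237, but 43 with 10 reads in all libraries, 26 in 500 bp tiles, 0 with limma, 130 without the bound on fitted logits, and 0 to 1445 with 1 library left out (0 without day 10 or day 16 stem, 1445 without week 3 or week 9 mature). For stem against mature, 0 became 1 with 10 reads, 6 without the stage block and 0 to 8 with 1 library left out; dropping the block changed no other call. With single libraries left out, pregnancy in mature cells called 0 to 28 tiles; the ranges were 0 to 37 for the stem and progenitor difference of effects and 0 to 1393 for stem and mature. The causes were not tested. Window differences for Gata3 between cell types and for pregnancy in stem cells of Esr1, Gata3 and Foxa1 kept their direction, with 1 exception. In the split by file layout, Gata3 stem minus progenitor was 2.55 points in 4-column and -0.626 points in 6-column files. Others, none past its threshold, changed sign (points). With 10 reads: Pgr progenitor minus mature -0.0418, Foxa1 stem minus mature -0.309, and pregnancy in Pgr stem -0.174, Pgr mature -0.00873, Gata3 mature 0.181 and Foxa1 mature -0.0476. With any CpG of 5 reads: Esr1 stem minus progenitor 1.615, stem minus mature 2e-05 and progenitor minus mature -1.615, Foxa1 stem minus mature -0.161, and pregnancy in Esr1 progenitor -1.03, Pgr stem -0.0629, Pgr progenitor 0.0343, Pgr mature -0.154, Gata3 progenitor -0.0982, Gata3 mature 0.343 and Foxa1 mature -0.107. With pooled reads: Esr1 stem minus mature 0.762, Pgr progenitor minus mature -0.1325, Foxa1 stem minus mature -0.3235 and pregnancy in Gata3 mature 1.235. With 1 stage or library left out the ranges were, for Esr1, stem minus progenitor -0.863 to 0.118 and stem minus mature -0.596 to 0.322; for Pgr, stem minus mature -0.380 to 0.0331, progenitor minus mature -0.144 to 0.201, and pregnancy in stem -0.261 to 0.163, in progenitor -0.407 to 0.1715 and in mature -0.3795 to 0.449; for Gata3, pregnancy in progenitor -0.562 to 0.974 and in mature -0.261 to 0.147; for Foxa1, stem minus mature -0.525 to 0.620 and pregnancy in progenitor -0.946 to 1.17 and in mature -0.8885 to 1.435. At the Foxa1 tile from 58646001 the pregnancy effect of stem minus progenitor, 0.24 points, was -0.00301 points without day 19 stem and at most 0.487 points without another library. Depth limits single CpGs most in the retired and day 16 libraries.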
